A study of Mus musculus with 8 samples.

Results

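The Rab GTPases and the Tbc1d proteins were taken by name from the gene names of the array, as Rab or Tbc1d followed by a number. Of 29924 gene names, 89 fitted (58 Rab and 31 Tbc1d genes). Each was read from its brightest probe, and 69 (43 Rab and 26 Tbc1d genes) were kept because that probe lay well above its local background on most spots, on each of the 2 arrays of a cell type, in at least 1 of the 4. The same filter kept 15763 genes of the whole array. Of the 69, 63 were well above background on all 8 arrays, whereas *Rab26*, *Rab42*, *Tbc1d32*, *Tbc1d2*, *Rab33a* and *Tbc1d16* were so on 3 to 7 arrays only. Among the 20 genes left out, *Rab39b* and *Rab3b* came closest, with 1 array each (TFR cells), and the other 18 were not well above background on any array.

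Rab GTPases are the switches of membrane traffic. An exchange factor loads a Rab with GTP, the active Rab recruits effectors and tethers to its membrane, and a GTPase-activating protein (GAP), in most cases a protein with a TBC domain such as those of the Tbc1d family, switches it off. GDI proteins then extract the inactive Rab from the membrane. In T cells this machinery recycles receptors to the synapse and delivers cytokines and granules to it. *Tbc1d4* is best known from muscle and fat, where it keeps vesicles with glucose transporters inside the cell until Akt phosphorylates it.

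Gene expression was measured on 8 1-colour Agilent arrays, 1 for each of 4 CD4 T cell populations on d12 and on d25 after s.c. immunization of B6.Cg-Foxp3<tm1Mal> mice with KLH in alum. In these mice EGFP reports expression of Foxp3, and every population came from immunized animals. Each array holds 25 ng RNA of cells sorted from peripheral lymph nodes (pLN) pooled from 8 to 15 mice of both sexes aged 8 to 14 weeks. Naïve T cells were GFP-, low in PD1 and GL7-, TFH cells GFP-, high in PD1 and GL7+, Treg cells GFP+, low in PD1 and GL7-, and TFR cells GFP+, high in PD1 and either GL7+ or GL7-. TFR cells were thus not gated on GL7 as TFH cells were, and the naïve gate as described used no other marker of past activation. With 1 pool per cell type and day, both days served as the pair of arrays of a cell type. The p-values rest on how far these pools depart from a fit that adds cell type and day. A difference between cell types that depends on day thus counts as spread. Levels are given in relative units (RU, 75th percentile of each array set to 1500, floor 20), and changes as log2 differences with the SE of a fit with cell type and day (limma). A gene was called at an adjusted p below 0.05 after Benjamini-Hochberg adjustment over all genes tested.

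Between 46.3% and 50.4% of probes per array were well above background. *Foxp3* lay between 37266 and 49260 RU in the GFP+ and between 65.5 and 358 RU in the GFP- populations, *Pdcd1* and *Cxcr5* were called higher and *Ccr7* lower in both follicular populations, and *Cd4* and *Cd3e* were at 41172 RU or more on all arrays. Marker genes of other states moved as well. Of 8 proliferation markers, 7 were tested and all 7 were called higher in TFH than in naïve T cells and in TFR than in Treg cells. Their summed level was 1826 to 2551 RU in naïve, 11986 to 18510 RU in TFH, 4979 to 5656 RU in Treg and 28985 to 45210 RU in TFR cells. Of 9 B cell markers, 7 were tested and 1 (*Cd22*) was called in each follicular comparison. Their summed level was 18200 RU in TFH cells at d25 against 6112 to 10334 RU on the other arrays, and *Ms4a1* and *Cd79a* stood at 2737 and 1821 RU there. The 2 CD8 markers summed to 2110 to 3173 RU in the follicular and 4208 to 5117 RU in the other populations. The 8 myeloid markers summed to 21568 to 30586 RU in naïve, 18788 to 27401 RU in TFH, 18510 to 22602 RU in Treg and 17719 to 23709 RU in TFR cells. Of 5 tested, *Cd68* was called higher in both follicular comparisons (551 and 564 RU in naïve, 5098 and 3767 RU in TFH, 368 and 394 RU in Treg, 2867 and 2334 RU in TFR cells), and *Itgam* and *Csf1r* were called lower in TFH cells. The 6 markers of antibody-secreting cells on the array summed to 21186 to 32052 RU in naïve, 42685 to 48572 RU in TFH, 32886 to 33157 RU in Treg and 27037 to 35376 RU in TFR cells. Of 4 tested, *Xbp1* was called higher in TFH and *Prdm1* in TFR cells. *Xbp1* made up most of the TFH sums, with 34806 and 42857 RU. *Jchain* and *Mzb1* had another pattern and were brightest on the naïve array of d12 (7465 and 7639 RU). Elsewhere they reached at most 3154 and 4026 RU, both on the d12 array of TFH cells. For d25, both were higher in TFH (1498 and 3624 RU) than in naïve T cells (1156 and 1351 RU). Of these lists, 1 B cell, 2 myeloid, 1 antibody-secreting cell and 1 proliferation marker were not well above background on any array. The part of these markers in the results on Rab and Tbc1d genes was not tested. In such sorted bulk material, fewer cells that express a gene and less RNA per cell cannot be told apart.

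Each gene rests on a probe of 60 bases. The first 30 bases of the probes are shown for both pairs of paralogs in which a gene rose while its relative fell in TFR cells, with the position of the whole probe (build mm9). They are all in lower case since no base is singled out.
Tbc1d4 (chr14:101841577-101841636, minus strand): ccatcaggttcctgtaacgtctagaattat
Tbc1d1 (chr5:64742581-64742640, plus strand): ggagggtgacagtggacagcttctttccac
Rab8b (chr9:66691564-66691623, minus strand): tatggacctgccatgtggctagtctgttga
Rab8a (chr8:74704496-74704555, plus strand): aagcacaaactaaggaaagctcacttagag
Over the 69 probes used, the longest run of bases shared with the probe of another member was 9 bases in the median and 12 at most. *Tbc1d31* is shown with its 3 probes because they disagreed. The first of them gave the reported values and lies most downstream on chromosome 15.
Tbc1d31, brightest probe (chr15:57801562-57801621, plus strand): gctttggcttgtaaagggcttctggaatct
Tbc1d31, next probe (chr15:57793758-57793817, plus strand): tgagaacagacgcaaagaggtcgaagtgtt
Tbc1d31, last probe (chr15:57784469-57784528, plus strand): aaagttcattgtggactaccagacacggga

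Promoters are shown for *Tbc1d4* and *Rab8b*, which rose in both follicular populations, and for *Tbc1d15*, which fell in both. They span 300 bases around the start site (RefSeq, GRCm38.p6, 250 bases before to 50 after the start), printed 5′ to 3′ on the gene's strand. Capitals mark matches, on either strand, to an E-box (CACGTG), an AP-1 site (TGACTCA), a cyclic AMP response element (TGACGTCA), an ETS site (CCGGAAG) or a GC box (GGGCGG).
Tbc1d4 promoter (chr14:101609142-101609441, minus strand): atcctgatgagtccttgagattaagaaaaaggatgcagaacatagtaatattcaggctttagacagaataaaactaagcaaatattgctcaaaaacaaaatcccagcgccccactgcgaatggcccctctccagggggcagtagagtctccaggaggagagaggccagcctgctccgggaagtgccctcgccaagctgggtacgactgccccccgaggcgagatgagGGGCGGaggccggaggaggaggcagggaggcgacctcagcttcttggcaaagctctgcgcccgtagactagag
Rab8b promoter (chr9:66919656-66919955, minus strand): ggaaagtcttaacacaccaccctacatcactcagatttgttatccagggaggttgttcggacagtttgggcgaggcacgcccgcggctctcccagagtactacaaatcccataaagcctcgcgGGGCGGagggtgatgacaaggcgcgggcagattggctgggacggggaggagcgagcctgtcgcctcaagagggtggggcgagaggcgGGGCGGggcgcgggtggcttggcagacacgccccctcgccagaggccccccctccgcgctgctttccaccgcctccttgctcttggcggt
Tbc1d15 promoter (chr10:115251444-115251743, minus strand): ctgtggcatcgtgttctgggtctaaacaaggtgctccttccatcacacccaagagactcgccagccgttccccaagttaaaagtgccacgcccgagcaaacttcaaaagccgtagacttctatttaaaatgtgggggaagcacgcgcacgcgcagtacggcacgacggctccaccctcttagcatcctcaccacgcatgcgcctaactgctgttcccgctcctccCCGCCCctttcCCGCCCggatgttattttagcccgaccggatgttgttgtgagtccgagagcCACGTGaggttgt
The *Tbc1d4* promoter held 1 GC box, that of *Rab8b* held 2, and that of *Tbc1d15* held 2 GC boxes and 1 E-box. Of the 69 members, 55 were matched to 66 promoters. A GC box stood in 69.7% of these against 35.7% of all 32851 promoters of this length, an E-box in 16.7% against 7.15%, and an ETS site in 10.6% against 8.86%. AP-1 sites and cyclic AMP response elements were in 1.52% of member promoters each, against 5.20% and 1.79%. These are matches of letters, and no test was made of them. The set of all promoters was not limited to genes that passed the filter, as the members were.

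The question put to TFH against naïve T cells was which members change with follicular differentiation of Foxp3- cells. *Tbc1d4* rose most, by 4.37 on the log2 scale, and *Rab26*, *Tbc1d31*, *Rab42*, *Rab8b*, *Tbc1d2*, *Rab43*, *Rab11a*, *Tbc1d2b*, *Tbc1d7* and *Rab19* rose by more than 1. *Tbc1d16*, *Rab20* and *Rab3d* fell by more than 1. In all 27 members were called, 18 higher and 9 lower, while the share over all 15760 genes tested in this comparison was 46.6% (20.9% for rises and 25.7% for falls). Since members such as *Rab26* passed the filter through TFH or TFR cells alone, the count over the 63 members above background on all arrays is given too. It was 23, or 36.5%, against 45.3% of all such genes. Their median absolute change was 0.29 against 0.39. The median change of the 69 was 0.13 against -0.07 over all genes. Of the B cell markers, *Cd22* was brightest in TFH cells at d12 (6016 RU) and *Cd79b* in Treg cells at d25 (7547 RU). The sum of the B cell markers was highest on the TFH array of d25, and their part in these calls was not tested. Leaving that array out cannot test it, as TFH cells then have no pair of arrays. *Jchain* and *Mzb1* were highest on the naïve array of d12, and their part was not tested either. Leaving out this naïve array cannot test it for the same reason. Without the naïve array of d12 the count was 15 and not 27, and with 75th percentile scaling alone it was 15 higher and 12 lower.

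**Figure D1:**
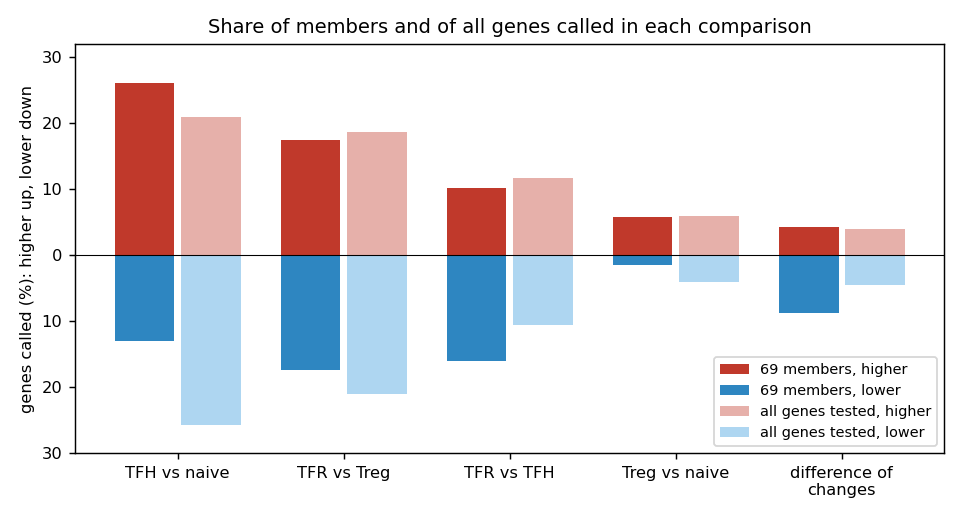
Share of the 69 Rab and Tbc1d genes (dark bars) and of all genes tested (light bars) called higher (upward) or lower (downward) in each comparison, in percent. In TFH cells 18 members were called higher and 9 lower, and the members' share lower stands below that of all genes (25.7%).

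*Tbc1d4* measured 6477 and 6270 RU in naïve T cells (d12 and d25), 96582 and 178558 RU in TFH, 14957 and 18757 RU in Treg and 48299 and 95527 RU in TFR cells. Both TFH arrays stood above all others and both naïve arrays below all others. The difference between TFH and naïve T cells was 4.37 (SE 0.28, adjusted p = 0.00054), a 20.6-fold rise, and between TFR and Treg cells 2.02 (SE 0.28, adjusted p = 0.0065), 4.06-fold. The second probe of the gene, above background on 2 arrays, differed by 3.67 and 0.92. Without the d25 array of Treg or of TFR cells the adjusted p of the TFR change reached 0.051.

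*Tbc1d31*, whose protein is found at centriolar satellites, measured 366 and 399 RU in naïve, 1494 and 1640 RU in TFH, 340 and 290 RU in Treg and 1085 and 1148 RU in TFR cells. Both follicular populations were thus high and both others low, with differences of 2.03 (SE 0.12, adjusted p = 0.00046) and 1.83 (SE 0.12, adjusted p = 0.0012). This rests on the probe: those shown above as next and last differed by -1.22 and 0.08 in TFH and by -0.19 and 1.70 in TFR cells. With the mean of its 3 probes the call in TFH cells was lost (adjusted p = 0.32).

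*Tbc1d7*, a subunit of the TSC complex that restrains mTORC1, measured 357 and 391 RU in naïve, 1075 and 732 RU in TFH, 434 and 567 RU in Treg and 1397 and 1092 RU in TFR cells. It was high on all 4 follicular arrays, by 1.25 (SE 0.25, adjusted p = 0.015) and 1.32 (SE 0.25, adjusted p = 0.016). *Tbc1d2b* rose by 1.31 and 0.46, from 1859 and 2141 RU in naïve to 4418 and 5520 RU in TFH cells, and from 2496 and 2480 RU in Treg to 3232 and 3614 RU in TFR cells. *Tbc1d2*, a GAP of Rab7, was not well above background in naïve T cells (43.6 and 31.5 RU) and measured 111 and 98.7 RU in TFH cells, which is at least 1.79-fold higher (adjusted p = 0.0017). The bound sets the mean of the brighter group against that of the dim arrays. Each dim array is taken at its lowest signal that was well above background, or at the gene's own level where higher. That lowest signal is over all probes, and a gene not well above background can exceed it. *Tbc1d9b*, a GAP of Rab11, rose by 0.33 (adjusted p = 0.030).

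Among the GAPs that fell, *Tbc1d16*, which acts on Rab4, measured 182 and 213 RU in naïve T cells and was at the floor of 20 RU in both TFH samples, at least 5.74-fold lower (adjusted p = 0.0078). It was 114 and 30.6 RU in Treg and 24.8 and 20 RU in TFR cells, where no call was made. *Tbc1d15*, a GAP of Rab7 at mitochondria, fell by 0.88 (SE 0.14, adjusted p = 0.0082) in TFH and by 1.22 (SE 0.14, adjusted p = 0.0045) in TFR cells. Its levels were 5314 and 6093 RU in naïve and 5466 and 7125 RU in Treg cells against 2417 and 3976 RU in TFH and 2398 and 3010 RU in TFR cells, so that no follicular array reached the others. *Tbc1d30*, which acts on Rab8, fell from 921 and 827 RU to 584 and 534 RU (difference -0.65, adjusted p = 0.025).

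**Figure D2:**
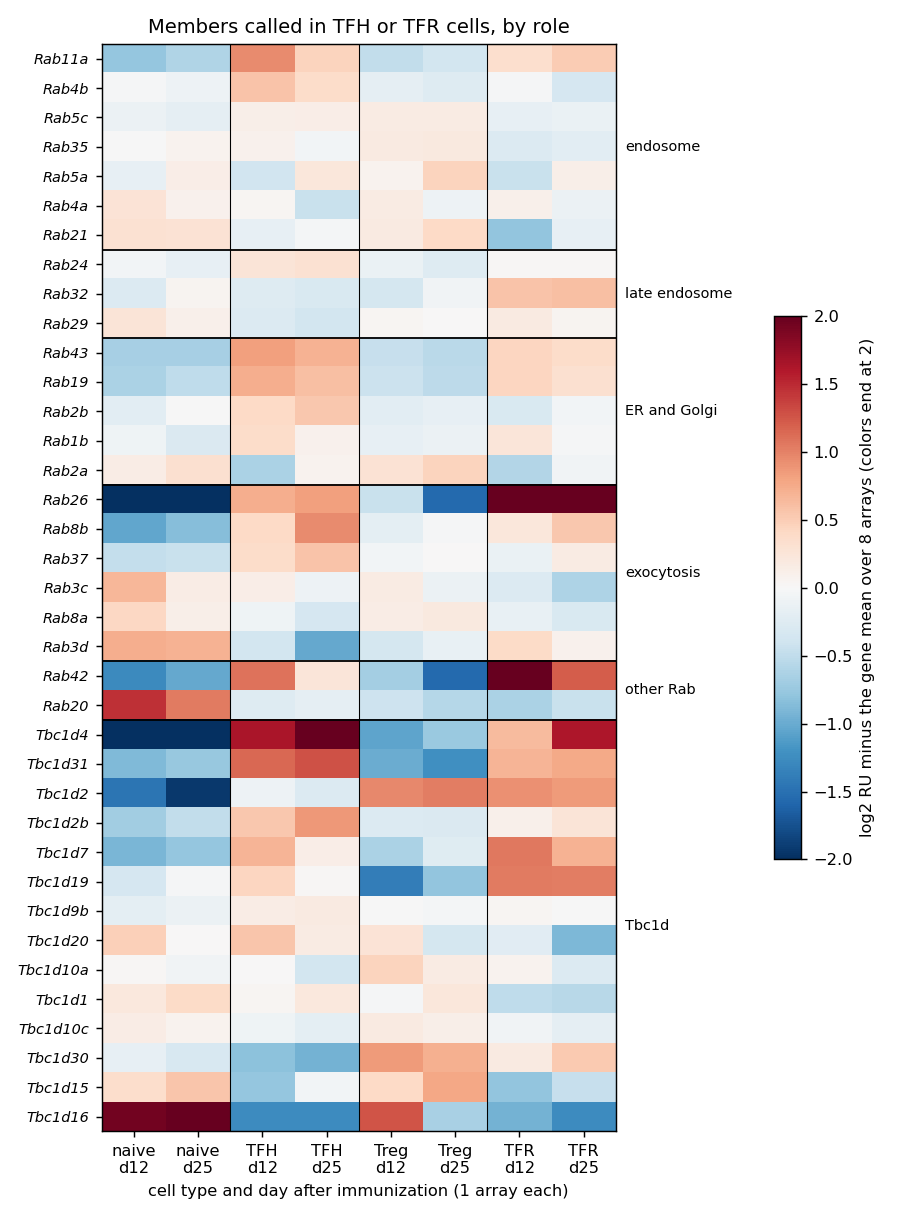
Levels of the members called in TFH versus naïve or in TFR versus Treg cells on the 8 arrays (columns), as log2 RU minus the mean of each gene over the arrays, grouped by role. *Tbc1d4*, *Rab26* and *Rab42* are red on all 4 follicular arrays and blue in naïve T cells, and *Tbc1d15* shows the reverse, faintly so in TFH cells at d25.

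Among Rabs of exocytosis and the plasma membrane, 3 of 8 tested rose and 3 fell in TFH cells (over all genes, 20.9% rose and 25.7% fell). *Rab26*, a Rab of secretory granules, was not well above background in naïve (23.9 and 20 RU) or Treg cells (72.5 and 33.6 RU) and measured 164 and 175 RU in TFH and 475 and 572 RU in TFR cells. It was at least 2.90-fold higher in TFH than in naïve T cells (adjusted p = 0.0029) and at least 8.75-fold higher in TFR than in Treg cells (adjusted p = 0.0031). *Rab8b*, which carries vesicles from the Golgi to the plasma membrane, measured 12988 and 14730 RU in naïve, 35051 and 51404 RU in TFH, 23198 and 26368 RU in Treg and 31296 and 38761 RU in TFR cells. All naïve arrays lay below all Treg arrays and these below the follicular ones, with a rise of 1.62 (SE 0.12, adjusted p = 0.00084) in TFH and of 0.49 (SE 0.12, adjusted p = 0.033) in TFR cells. Its other probe differed by 1.33 and -0.16, and with the mean of both the TFR call was lost (adjusted p = 0.42). *Rab37*, known from mast cell granules, rose by 0.94 (adjusted p = 0.0024) in TFH cells.

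*Rab3d*, which sits on secretory granules, fell from 1917 and 1879 RU in naïve to 903 and 571 RU in TFH cells, a difference of -1.40 (SE 0.22, adjusted p = 0.0069), and by its other probe of -1.13. Its relative *Rab3c* fell by 0.40 in TFH and by 0.48 in TFR cells (adjusted p = 0.031 and 0.022), and *Rab3a* differed by -0.02 and -0.16 with no call. With the mean of all its probes the TFH call of *Rab3c* was lost. *Rab8a* fell in both populations, by 0.48 (adjusted p = 0.023) and 0.40 (adjusted p = 0.044), opposite to *Rab8b*. Its levels were 6682 and 5468 RU in naïve, 4727 and 3987 RU in TFH, 5571 and 5735 RU in Treg and 4512 and 4055 RU in TFR cells.

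Among Rabs of the endoplasmic reticulum and Golgi, 4 of 12 rose in TFH cells and none was called lower, against the same 20.9% and 25.7%. *Rab43* measured 9957 and 9890 RU in naïve, 27839 and 25563 RU in TFH, 11439 and 10865 RU in Treg and 21275 and 20330 RU in TFR cells. The days of a cell type lay close together, and the differences were 1.43 (SE 0.08, adjusted p = 0.00039) and 0.90 (SE 0.08, adjusted p = 0.0023), against 0.64 and -0.16 by its dimmer probe. *Rab19* followed the same order with 6162 and 6742 RU, 15888 and 14592 RU, 7152 and 6691 RU, and 12996 and 12035 RU, and rose by 1.24 (adjusted p = 0.0010) and 0.85 (adjusted p = 0.0045). *Rab2b* and *Rab1b*, which serve early secretory traffic, rose in TFH cells by 0.58 and 0.41 (adjusted p = 0.0076 and 0.036) and differed by 0.00 and 0.25 in TFR cells.

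Among Rabs of early and recycling endosomes, 3 of 12 rose and 1 fell in TFH cells (20.9% and 25.7% of all genes). *Rab11a*, the Rab of recycling endosomes, measured 3538 and 3981 RU in naïve, 11724 and 8275 RU in TFH, 4327 and 4714 RU in Treg and 7624 and 8669 RU in TFR cells. All follicular arrays exceeded all others, with rises of 1.39 (SE 0.20, adjusted p = 0.0053) and 0.85 (SE 0.20, adjusted p = 0.028), whereas *Rab11b* differed by 0.24 and -0.06 with no call. The pair *Rab4a* and *Rab4b*, both Rabs of fast recycling, was called in opposite directions in TFH cells, *Rab4a* by -0.39 (adjusted p = 0.040) and *Rab4b* by 0.53 (adjusted p = 0.011). *Rab5c* rose by 0.27 (adjusted p = 0.045). Of the Rabs of late endosomes and lysosomes, *Rab24* rose by 0.39 (adjusted p = 0.023) and *Rab29* fell by 0.49 (adjusted p = 0.0088) among 5 tested, and *Rab7*, the defining Rab of that compartment, differed by -0.02 and -0.15 in TFH and TFR cells.

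*Rab20*, a Rab of phagosomes, measured 1406 and 1046 RU in naïve T cells and 425 and 450 RU in TFH, 384 and 345 RU in Treg and 330 and 375 RU in TFR cells. Naïve T cells thus stood apart from the other 3 populations, with differences of -1.47 (SE 0.17, adjusted p = 0.0027) in TFH and -1.74 (SE 0.17, adjusted p = 0.0067) in Treg cells. *Rab42* was not well above background in naïve (32.1 and 38.2 RU) or Treg cells (48.4 and 26.4 RU), measured 164 and 92.0 RU in TFH and 309 and 179 RU in TFR cells, and was at least 2.10-fold (adjusted p = 0.0091) and 4.43-fold (adjusted p = 0.0040) higher.

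TFR against Treg cells asks the same of Foxp3+ cells. *Rab26*, *Rab42*, *Tbc1d19*, *Tbc1d4*, *Tbc1d31* and *Tbc1d7* rose by more than 1, and *Tbc1d15* fell by more than 1. In all 24 members were called, 12 higher and 12 lower, while the share over all genes was 39.7% (18.7% for rises and 21.0% for falls). Over the 63 members above background on all arrays the count was 22, or 34.9%, against 37.8% of such genes, and the median change of the 69 was 0.01 against -0.08 over all genes. Leaving out an array of either population lowered the count to 9 (Treg d12) or 10 (TFR d12, Treg d25 and TFR d25). The arrays of Treg and TFR cells overlapped for *Rab5a* and *Tbc1d20*, although both were called.

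*Tbc1d19*, a TBC protein with little known of its target, measured 255 and 318 RU in naïve, 435 and 327 RU in TFH, 124 and 186 RU in Treg and 661 and 655 RU in TFR cells. It was lowest in Treg and highest in TFR cells at both days, a rise of 2.12 (SE 0.25, adjusted p = 0.0045), while its difference in TFH cells was 0.40 (adjusted p = 0.24). *Rab32*, a Rab of lysosome-related organelles, measured 1878 and 1921 RU in TFR cells against 991 to 1316 RU on the other 6 arrays, and rose by 0.80 (SE 0.13, adjusted p = 0.010).

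The other falls in TFR cells were small. *Rab21*, which carries integrins through early endosomes, fell by 0.77 (adjusted p = 0.023), *Rab2a* by 0.69 (adjusted p = 0.031), *Rab35* by 0.43 (adjusted p = 0.023), *Rab5a* by 0.43 (adjusted p = 0.037) and *Rab5c* by 0.31 (adjusted p = 0.036). Of Rabs of early and recycling endosomes 4 of 12 were thus called lower and 1 higher, against 21.0% and 18.7% of all genes. *Tbc1d1*, the closest relative of *Tbc1d4*, measured 8136 and 9145 RU in naïve, 7209 and 8099 RU in TFH, 6906 and 8174 RU in Treg and 4908 and 4752 RU in TFR cells. By this probe it fell in TFR cells by 0.64 (SE 0.10, adjusted p = 0.010), opposite to *Tbc1d4*, and differed by -0.17 in TFH cells. Its other probes differed by -0.34 and -1.36 in TFR and by -0.28 and -1.27 in TFH cells. *Tbc1d20*, a GAP of Rab1, fell by 0.53 (adjusted p = 0.018), *Tbc1d10a*, which acts on Rab35, by 0.40 (adjusted p = 0.039) and *Tbc1d10c*, known in T cells as an inhibitor of calcineurin, by 0.28 (adjusted p = 0.046), whereas *Tbc1d10b* differed by 0.02.

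The comparisons of TFH with naïve and of TFR with Treg cells share no arrays. Both come from the same fit, with the same estimate of the spread for a gene, so their calls are not independent. Of the members, 14 were called in both, which is 51.9% of the TFH calls and 58.3% of the TFR calls. Over all genes these shares were higher, at 61.7% and 72.4%. Of the 14, 10 rose in both (*Tbc1d4*, *Rab26*, *Tbc1d31*, *Rab42*, *Rab8b*, *Rab43*, *Rab11a*, *Tbc1d2b*, *Tbc1d7* and *Rab19*), 3 fell in both (*Tbc1d15*, *Rab8a* and *Rab3c*), and *Rab5c* was called in opposite directions. Over all genes called in both, 96.8% went the same way. No call was made for 32 members in either.

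**Figure D3:**
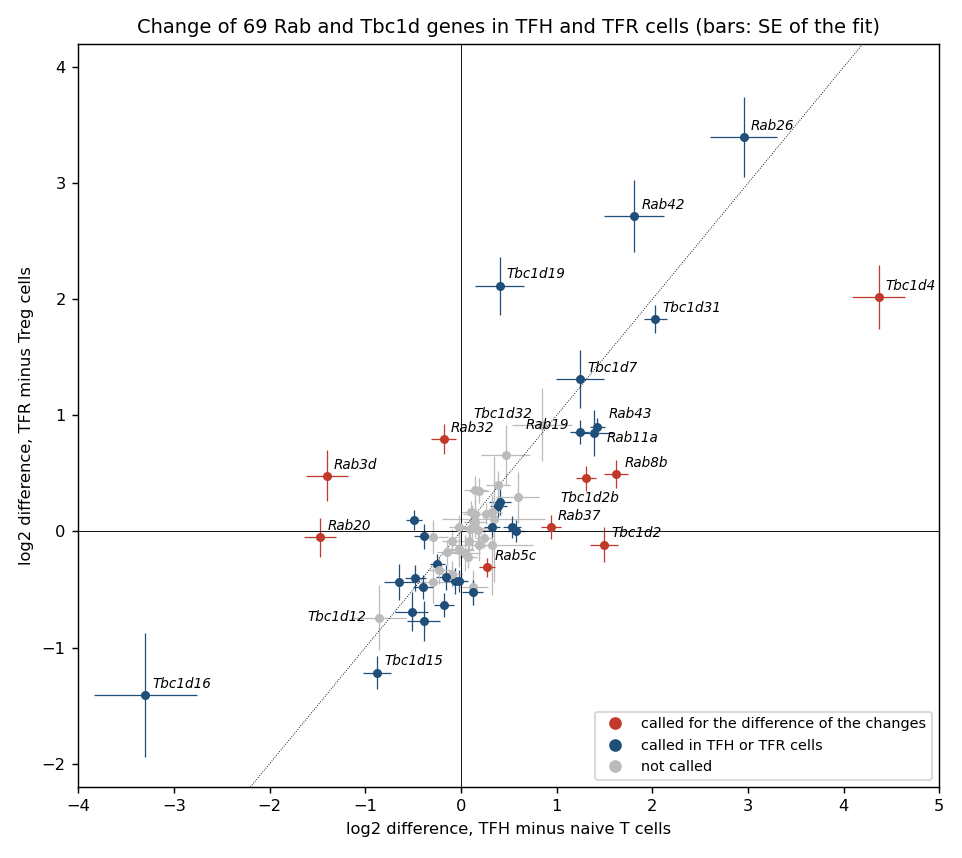
Log2 difference of TFH minus naïve T cells (x axis) and of TFR minus Treg cells (y axis) for the 69 members, with the SE of the fit as bars and a dotted line of equal change. *Tbc1d4* (4.37 and 2.02) lies below the line, *Rab3d* (-1.40 and 0.48) and *Rab20* (-1.47 and -0.05) lie left of it, and *Rab26* and *Rab42* lie high in both.

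Whether the follicular change differed between Foxp3+ and Foxp3- cells was tested as the difference of both changes. It was called for 9 members, 3 higher and 6 lower in TFR cells, against 8.49% of all genes (4.03% higher and 4.46% lower). With slide in place of day in the fit, *Tbc1d2* alone was called, and with any array left out 0 to 3 members were. With 75th percentile scaling alone the count was 5 higher and 5 lower.

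The rise of *Tbc1d4* was smaller in TFR cells by 2.35 (SE 0.40, adjusted p = 0.034), from a Treg level that was already 1.39 above naïve (adjusted p = 0.047). For *Tbc1d2* the difference of the changes was -1.61 (SE 0.21, adjusted p = 0.018), and it measured 232 and 244 RU in Treg and 226 and 214 RU in TFR cells. Its level in naïve T cells, below background, sets this value in part. With the mean of all its probes it was -0.52 and the call was lost (adjusted p = 0.12). The difference of the changes was also below 0 for *Rab8b* (difference -1.12, adjusted p = 0.027), *Rab37* (-0.90, adjusted p = 0.031), *Tbc1d2b* (-0.85, adjusted p = 0.039) and *Rab5c* (-0.58, adjusted p = 0.048). *Rab37* measured 12967 and 13286 RU in naïve, 23396 and 26991 RU in TFH, 17432 and 18161 RU in Treg and 16486 and 20286 RU in TFR cells, so that Treg and TFR cells overlapped. It was above 0 for *Rab3d* (1.88, adjusted p = 0.032), which was 915 and 1051 RU in Treg and 1517 and 1230 RU in TFR cells. By its other probe *Rab3d* differed by -0.21 in TFR cells, and with the mean of both probes this call was lost (1.40, adjusted p = 0.11). The difference was also above 0 for *Rab20* (1.42, adjusted p = 0.033) and for *Rab32* (0.98, adjusted p = 0.043).

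**Figure D4:**
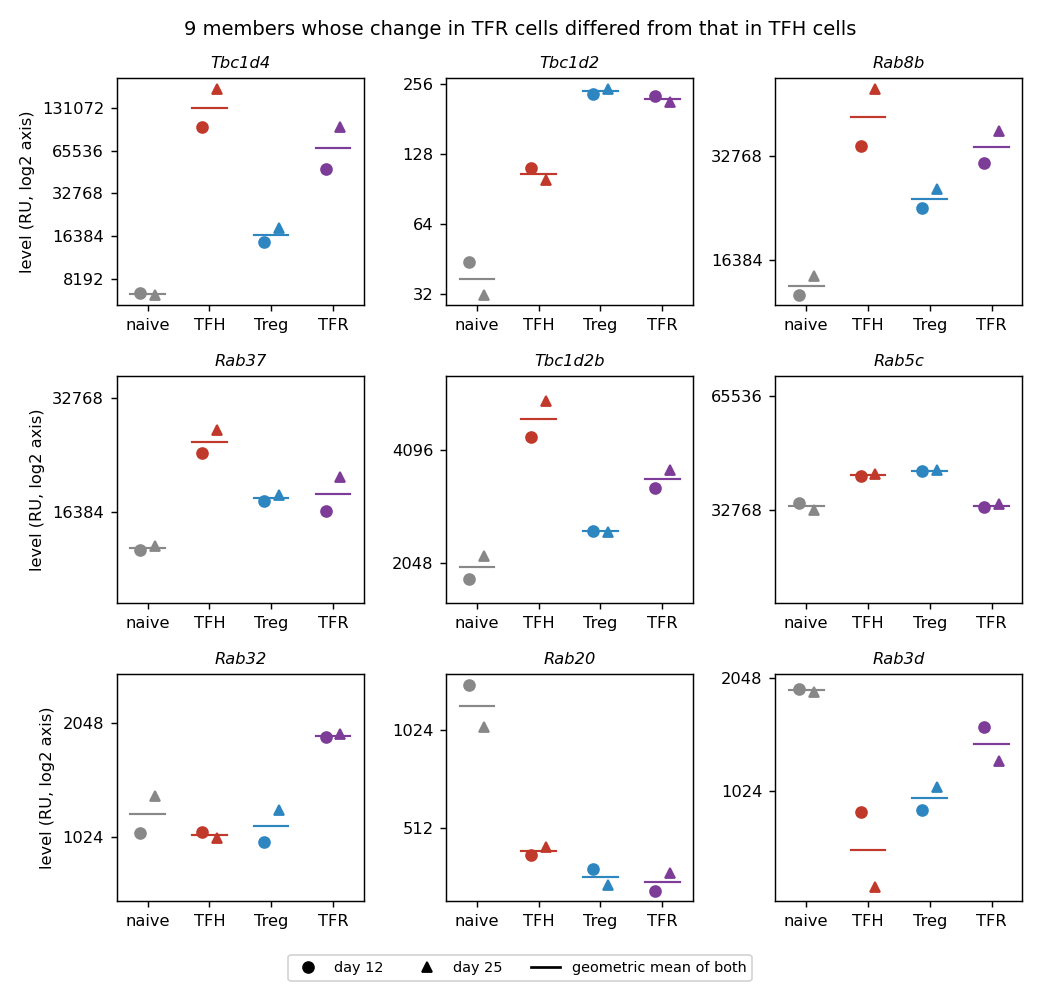
Level in RU (log2 axis) of the 9 members called for the difference of the follicular changes, for each cell type at d12 (circles) and d25 (triangles), with the geometric mean of both as a line. *Tbc1d2* lies between 214 and 244 RU on all Treg and TFR arrays, and *Rab32* reaches 1878 and 1921 RU in TFR cells.

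TFR and TFH cells were compared directly as well. *Rab26* was higher in TFR cells by 1.62 (SE 0.35, adjusted p = 0.034), *Tbc1d30* by 1.23 (SE 0.16, adjusted p = 0.0082), *Tbc1d2* by 1.07 (SE 0.15, adjusted p = 0.010), *Rab3d* by 0.93 (not called with the mean of both its probes, adjusted p = 0.092), *Rab32* by 0.87, *Tbc1d14*, a regulator of autophagy, by 0.61 and *Rab29* by 0.44. The falls were led by *Tbc1d20* (difference -0.93, SE 0.11, adjusted p = 0.0062), which measured 1941 and 1475 RU in TFH and 1121 and 705 RU in TFR cells. *Rab3a* (-0.86), *Tbc1d1* (-0.66), *Rab2b* (-0.65), *Rab4b* (-0.64), *Tbc1d2b* (-0.53), *Rab37* (-0.46), *Rab3c* (-0.46), *Rab40c* (-0.45), *Rab11b* (-0.39) and *Rab43* (-0.36) were called lower too. That made 18 members, 7 higher and 11 lower, against 22.1% of all genes (11.7% higher and 10.5% lower). With the mean of all probes of a gene, the calls of *Tbc1d14*, *Tbc1d1* and *Rab3c* were lost besides that of *Rab3d*. The d25 arrays of TFH and TFR cells lay on different slides. With slide in the fit *Tbc1d20* and *Tbc1d2* alone were called, and leaving out any of the 8 arrays lowered the count to between 2 and 11. Within the slide of d12 the differences were 1.53 for *Rab26*, 1.03 for *Tbc1d2* and -0.79 for *Tbc1d20*. *Tbc1d4* differed by -0.95 (SE 0.28, adjusted p = 0.073) and was lower in TFR cells at both days.

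Between Treg and naïve T cells 5 members were called, 4 higher and 1 lower, against 9.87% of all genes (5.89% higher and 3.98% lower). *Tbc1d2* was at least 4.08-fold higher in Treg cells (adjusted p = 0.0017), *Tbc1d4* was higher by 1.39, *Tbc1d30* by 1.02 (SE 0.16, adjusted p = 0.022) and *Rab8b* by 0.84 (SE 0.12, adjusted p = 0.020), and *Rab20* was lower. *Tbc1d30* measured 921 and 827 RU in naïve against 1865 and 1687 RU in Treg cells. The d25 arrays of these populations lay on different slides too. With slide in the fit *Tbc1d2* and *Rab20* alone were called, with 75th percentile scaling alone the count was 4 higher and 2 lower, and without either naïve or either Treg array 2 were called.

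Between d25 and d12 no member was called in the limma fit, against 0.0698% of all genes, and 21 members (30.4%) had an unadjusted p below 0.05, close to the 28.9% of all genes. The largest differences were those of *Rab30* (-0.90, adjusted p = 0.14), *Tbc1d8b* (0.71, adjusted p = 0.086), *Rab28* (0.64, adjusted p = 0.068), *Rab42* (-0.56, adjusted p = 0.18), *Rab6b* (0.55, adjusted p = 0.078) and *Tbc1d20* (-0.54, adjusted p = 0.067). *Rab28*, a Rab of cilia, measured 484 to 597 RU at d12 and 676 to 921 RU at d25, without overlap. All d12 arrays lay on 1 slide and no d25 array did, so day and slide cannot be told apart.

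Partners of the Rabs were called in both directions. The median change in TFH cells was 0.55 for 10 other GAPs, 0.08 for 30 exchange factors and 0.10 for 50 effectors and tethers. It was 0.19 for 7 escort, prenylation and GDI genes and -0.03 for 10 kinase and insulin pathway genes, against -0.07 over all genes. In TFR cells it was 0.38, -0.02, 0.04, -0.29 and -0.19, against -0.08. Of the 10 GAPs outside the Tbc1d names, 5 rose and 1 fell in TFH cells, and 4 rose and 2 fell in TFR cells. Over all genes, 20.9% rose and 25.7% fell in TFH cells, and 18.7% rose and 21.0% fell in TFR cells. *Grtp1*, another TBC protein, was at the floor of 20 RU in both naïve samples and measured 671 and 1598 RU in TFH cells, at least 17.7-fold higher. *Usp6nl*, a GAP of Rab5, rose by 2.37 and *Evi5* by 1.60, while *Rabgap1* fell by 1.68 in TFH cells. Of 30 exchange factors, 7 rose and 6 fell in TFH (43.3% called, against 46.6% of all genes) and 6 rose and 5 fell in TFR cells (36.7% against 39.7%), both close to the share of all genes. *Rab3ip*, which activates Rab8, fell by 2.32 in TFH and by 1.46 in TFR cells, from 9322 and 9081 RU in naïve to 1822 and 1874 RU in TFH and from 8717 and 7721 RU in Treg to 3116 and 2842 RU in TFR cells. *Dennd5a* fell by 2.83 and *Dennd2d* rose by 1.91 in TFH cells.

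Of 50 effectors and tethers, 17 rose and 8 fell in TFH (50% called, against 46.6% of all genes) and 16 rose and 3 fell in TFR cells (38.0% against 39.7%). By direction, 20.9% of all genes rose and 25.7% fell in TFH cells, and 18.7% rose and 21.0% fell in TFR cells. *Eea1*, the tether that Rab5 recruits to early endosomes, was not well above background in naïve T cells (50.2 and 59.6 RU) and measured 1772 and 2369 RU in TFH, 364 and 344 RU in Treg and 1697 and 2278 RU in TFR cells. It was at least 32.1-fold higher in TFH than in naïve T cells and rose by 2.47 in TFR cells. *Sytl3* rose by 3.90 and 1.47, *Rilpl2* by 2.68 and 2.14 and *Rilp*, an effector of Rab7, by 2.56 and 0.60. *Sytl1* went the other way in TFH cells, from 6421 and 5588 RU in naïve to 1333 and 1407 RU. It measured 11911 and 11146 RU in Treg and 10299 and 10125 RU in TFR cells. Of 7 escort, prenylation and GDI genes, 2 rose and 1 fell in TFH and 1 rose and 3 fell in TFR cells, against the same shares of all genes. The list of Rab-directed kinases and the insulin pathway to Tbc1d1 and Tbc1d4 had 10 genes tested. Of these, 3 fell in TFH cells (*Sgk1* by 2.85, *Slc2a3* by 1.07, *Prkaa1* by 0.64), and 1 rose and 4 fell in TFR cells. The same shares of all genes stand beside these counts.

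**Figure D5:**
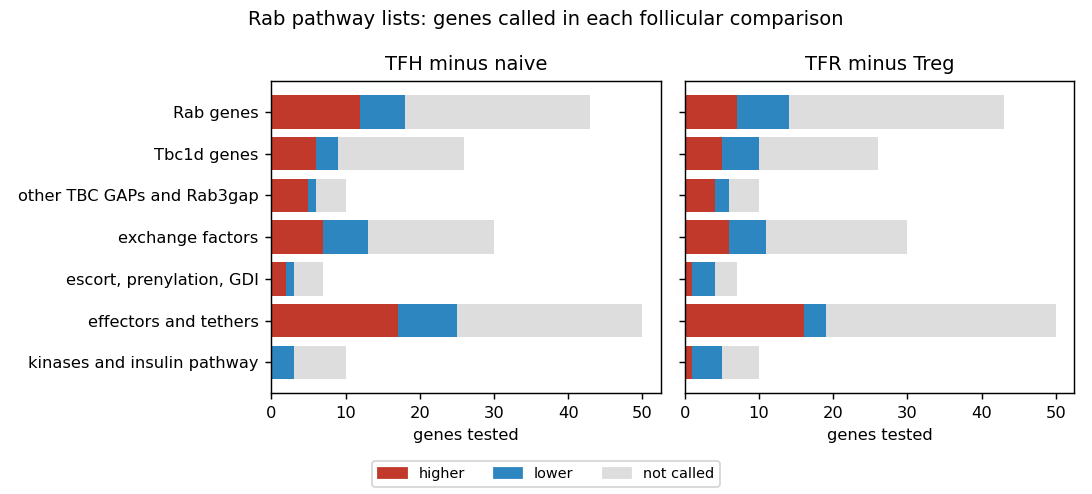
Number of genes tested in the Rab and Tbc1d families and in lists of their partners, with those called higher (red), lower (blue) or not called (grey) in TFH minus naïve and TFR minus Treg cells. Of 50 effectors and tethers 17 rose in TFH and 16 in TFR cells, while 20.9% and 18.7% of all genes rose.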

How the data were processed

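Processed signals of 1-colour Agilent arrays were deposited by the authors as Feature Extraction intensity values (version 10.7.3.1, probe positions on mm9), with 4 spots per probe. The authors averaged spots, applied quantile normalization, scaled the 75th percentile to 1500 and deposited these normalized intensity values as a table, on a linear scale. The values were rebuilt here from the spots: flagged spots, spots outside 1.42 interquartile ranges and spots with a pixel variation above 0.5 were left out (86.4% to 89.2% of spots remained), geometric means were taken, and values were floored at 20 before log2. Their correlation with log2 of the deposited table was r = 0.9994 at the lowest. No count depth exists for arrays, and their number limits precision. Cell type and day entered limma 3.58.1 in R 4.3.3 with all 8 arrays. The fit was tested on simulated data. Genes were read from the probe with the highest mean. Named genes are called members ranked by change with the same direction at both days, their paralogs, the members called for the difference of the changes and the largest day differences. Members and lists (Rab roles, partners, B cell, myeloid, CD8, antibody-secreting and proliferation markers) were chosen with earlier results of these data known. Alternatives covered normalization, background, spots, probes, filters, slide, day, variance, threshold and single arrays. Sequences came from the deposited probe annotation and RefSeq promoters, and proteins were not used here. 1 gene of the Rab family is not reported here.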

Additional observations from a re-analysis of the deposited data

Results flagged for a closer look

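The follicular change in Foxp3+ cells differed from that in Foxp3- cells, by the test of the difference itself, in 9 members. On the log2 scale the difference (TFR minus Treg, less TFH minus naïve) was -2.35 for *Tbc1d4* (4.37 in TFH and 2.02 in TFR cells), -1.61 for *Tbc1d2* (1.50 and -0.11, the first against naïve T cells in which the probe was not well above background, so that its rise is bounded only at 1.79-fold or more), -1.12 for *Rab8b* (1.62 and 0.49), -0.90 for *Rab37* (0.94 and 0.04), -0.85 for *Tbc1d2b* (1.31 and 0.46) and -0.58 for *Rab5c* (0.27 and -0.31). It was 1.88 for *Rab3d* (-1.40 and 0.48), 1.42 for *Rab20* (-1.47 and -0.05) and 0.98 for *Rab32* (-0.18 and 0.80). The share called over all genes was 8.49%. With slide in place of day *Tbc1d2* alone was called, and with any array left out 0 to 3 members were. With the mean of all probes of a gene the calls of *Rab3d* (1.40, adjusted p = 0.11), *Tbc1d2* (-0.52, adjusted p = 0.12) and *Rab5c* (-0.58, adjusted p = 0.050) were lost. *Rab5c* has 1 probe on the array, so its difference stayed the same and only its adjusted p moved.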

How the results depend on the processing

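No call on a member changed direction under the alternatives tried. Of the calls on members under each alternative other than the threshold on size, 1116 were kept and 451 were lost. All alternatives were passed by 11 of 27 calls in TFH versus naïve T cells (*Tbc1d4*, *Rab26*, *Rab8b*, *Tbc1d2*, *Rab43*, *Rab11a*, *Tbc1d2b*, *Rab19*, *Rab37*, *Rab20* and *Rab3d*), by 7 of 24 in TFR versus Treg cells (*Rab26*, *Rab42*, *Tbc1d19*, *Tbc1d31*, *Rab43*, *Rab19* and *Tbc1d15*), by 1 of 5 in Treg versus naïve T cells (*Tbc1d2*) and by 0 of 18 and 0 of 9 in TFR versus TFH cells and for the difference of the changes. The 6 members that were not above background on every array were not tested where that was required. Leaving out 1 array at a time gave 15 to 26 calls in TFH versus naïve T cells, 9 to 27 in TFR versus Treg, 2 to 11 in TFR versus TFH, 2 to 6 in Treg versus naïve T cells, 0 to 3 for the difference of the changes and 0 for day, with the array left of that cell type taken to vary like the others. Without the day term (no replicate block) the counts were 20, 14, 8, 3 and 3 in the same order. With slide as a fixed block they were 23, 18, 2, 2 and 1, and this block cannot be combined with day. Slide as a random block, with day kept, changed none of the counts. Its estimated slide correlation was 0.00056, which makes it nearly the main fit again, so it cannot decide on slide. Without a filter on dim probes, which raises the number of genes tested, they were 20, 13, 6, 2 and 1, and with a difference of at least 1 required besides the adjusted p they were 14, 7, 3, 4 and 5. Treg versus naïve T cells gave 9 calls with normexp correction, 8 without exclusion of spots and 10 with a trended and robust variance. Day gave 4 calls with normexp correction, 4 with the stricter filter and 8 with the trended variance. The cause of these shifts was not tested. Probes below background give bounds only.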
